A study of Homo sapiens with 2 samples.

Results

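Tubulins are the building blocks of microtubules, kinesins and dyneins are the motors that walk along them, and the unconventional myosins are motors of actin filaments that do not form the bipolar filaments of myosin II. RNA of these genes was read from 1 Affymetrix HG-U133 array each of HCC4006ER cells and of HCC4006 cells. Members were the genes whose symbol is that of an alpha-, beta-, gamma-, delta- or epsilon-tubulin or a gamma-tubulin complex protein (TUBA, TUBB, TUBG, TUBD, TUBE), a numbered kinesin (KIF), a cytoplasmic dynein subunit or light chain (DYNC, DYNL) or a numbered myosin (MYO). These symbols gave 106 of the 19775 genes on the array: 27 tubulins, of which 3 are annotated as pseudogenes (TUBBP5, TUBA3FP and TUBB7P), 38 kinesins, 18 dyneins and 23 myosins. They had 232 probe sets in all, and of these the one with the highest mean log2 signal stood for its gene.

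HCC4006ER cells are erlotinib-resistant NSCLC cells with an EMT phenotype by their label, selected from HCC4006 cells in rising erlotinib from 3 nM to 4 μM over 3 months, and were profiled as the selected population rather than as a single cell clone. HCC4006 cells are the erlotinib-sensitive parental line, with a wildtype phenotype by its label. Both lines carry the same EGFR exon 19 deletion, and both were grown for 48 hours in RPMI medium with 10% FBS and no further treatment. For each line 3 RNA preparations were mixed and hybridized to 1 array, so no replicate error and no test exist for any value, and all differences are given as a description of these 2 arrays. Signals are MAS5 intensities on a linear scale with no unit of concentration, and levels of different genes, read by different probes, are not compared. In a culture profiled as a whole, fewer cells expressing a gene and less of its RNA per cell cannot be told apart. HCC4006ER and HCC4006 stand here for the arrays that carry these labels.

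Microtubules grow from alpha/beta-tubulin dimers and are nucleated by gamma-tubulin ring complexes. Most kinesins walk toward the growing plus end, and cytoplasmic dynein walks toward the minus end. One class of kinesins builds the mitotic spindle and divides the cell, and another carries organelles and vesicles. In epithelial cells, class V and VI myosins move vesicles along actin near the cell surface, and class I myosins link membranes to actin.

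Promoters of 6 members are given because they show the motifs counted over the mitotic kinesins and the class V and VI myosins. Sequences are those of RefSeq (GRCh38.p14), 250 bases before to 50 bases after the first listed gene start, 5′ to 3′ on the gene's strand. KIF20A (chr5:138178862-138179161, plus strand), KIF15 (chr3:44761544-44761843, plus strand), KIF11 (chr10:92592880-92593179, plus strand) and KIF4A (chrX:70289854-70290153, plus strand) are shown for the mitotic kinesins, the first 2 because they were lower in HCC4006ER past 1.5-fold and the other 2 because they were not. MYO5C (chr15:52295755-52296054, minus strand) and MYO5B (chr18:50195098-50195397, minus strand) are shown for the class V myosins. Capitals mark 3 motifs searched on both strands: TTTGAA, the core of the cell cycle homology region (CHR) of late cell cycle genes, CCAAT, the NF-Y box, and CAGGTG, an E-box that ZEB and SNAI repressors can bind. In these 6 sequences no motif overlaps another.
KIF20A: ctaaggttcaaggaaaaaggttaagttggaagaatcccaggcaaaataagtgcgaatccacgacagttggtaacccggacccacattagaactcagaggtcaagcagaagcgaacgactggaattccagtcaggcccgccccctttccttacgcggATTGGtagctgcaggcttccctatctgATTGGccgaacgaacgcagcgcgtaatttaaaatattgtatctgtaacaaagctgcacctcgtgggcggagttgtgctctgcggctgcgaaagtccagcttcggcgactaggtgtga
KIF15: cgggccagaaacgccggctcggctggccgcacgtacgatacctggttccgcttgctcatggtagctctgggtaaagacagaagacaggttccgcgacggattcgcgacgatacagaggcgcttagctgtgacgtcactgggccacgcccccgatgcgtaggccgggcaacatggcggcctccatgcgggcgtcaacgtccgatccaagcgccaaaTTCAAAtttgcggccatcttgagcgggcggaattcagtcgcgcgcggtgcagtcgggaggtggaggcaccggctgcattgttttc
KIF11: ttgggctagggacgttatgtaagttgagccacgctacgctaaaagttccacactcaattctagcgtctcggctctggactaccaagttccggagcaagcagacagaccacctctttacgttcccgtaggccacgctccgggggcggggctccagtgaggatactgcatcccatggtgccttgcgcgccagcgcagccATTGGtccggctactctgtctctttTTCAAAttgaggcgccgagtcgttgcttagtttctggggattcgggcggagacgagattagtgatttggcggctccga
KIF4A: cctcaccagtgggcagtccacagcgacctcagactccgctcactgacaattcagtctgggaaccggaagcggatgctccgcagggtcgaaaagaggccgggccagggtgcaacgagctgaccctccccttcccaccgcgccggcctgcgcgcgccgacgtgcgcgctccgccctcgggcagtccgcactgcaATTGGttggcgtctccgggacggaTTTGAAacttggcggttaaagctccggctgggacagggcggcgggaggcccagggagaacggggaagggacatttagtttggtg
MYO5C: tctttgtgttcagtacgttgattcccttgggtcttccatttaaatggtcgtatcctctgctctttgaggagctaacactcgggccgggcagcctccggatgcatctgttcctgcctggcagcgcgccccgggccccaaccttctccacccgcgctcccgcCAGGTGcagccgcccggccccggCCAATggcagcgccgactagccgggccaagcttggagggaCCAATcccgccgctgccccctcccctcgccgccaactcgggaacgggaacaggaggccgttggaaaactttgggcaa
MYO5B: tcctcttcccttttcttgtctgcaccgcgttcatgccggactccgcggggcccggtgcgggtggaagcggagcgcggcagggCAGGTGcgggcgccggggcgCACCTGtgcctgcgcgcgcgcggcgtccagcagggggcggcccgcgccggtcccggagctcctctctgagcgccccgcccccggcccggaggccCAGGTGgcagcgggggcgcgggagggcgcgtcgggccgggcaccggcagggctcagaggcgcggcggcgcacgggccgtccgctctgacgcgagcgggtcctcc

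KIF20A holds 2 CCAAT boxes and no TTTGAA in this window, KIF15 holds 1 TTTGAA and no CCAAT, and KIF11 and KIF4A each hold both. Not all mitotic kinesins within 1.5-fold do: KIF22 holds CCAAT and no TTTGAA, and KIF2C holds neither. Whether the motifs bear on the folds was not tested. Over the 12 mitotic kinesins, TTTGAA was found in 8 promoters (66.7%) and CCAAT in 9, and over the 20 other kinesins with a promoter they were found in 1 and 6 (30.0%). Of all 27305 RefSeq promoters of the same length, 15.4% held TTTGAA, 35.7% CCAAT and 20.6% CAGGTG. The E-box was found in 3 of the 4 class V and VI myosins (MYO5A, MYO5B and MYO5C), in 20 of the 92 members with a promoter (21.7%) and in 1 of the 12 mitotic kinesins (KIF23, 8.33%). A match is a run of letters, not a site shown to be bound, and 21 members have several listed starts.

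Background was set by 127 olfactory and bitter taste receptor probe sets as a working floor, some of which airway or tumour cells may express, and their 95th percentile was 91.6 in HCC4006ER and 96.2 in HCC4006. Of the 106 members, 76 were above background on either array and 70 on both: 22 tubulins, 25 kinesins, 16 dyneins and 13 myosins were above it on either. The 6 that passed through 1 array only, where they had to be the brighter, were TUBB2B and DYNLRB2 in HCC4006ER and KIF25, KIF26A, MYO3B and TUBBP5 in HCC4006. The other 30 (5 tubulins, 13 kinesins, 2 dyneins and 10 myosins) reached at most 90.9 in HCC4006ER and 88.4 in HCC4006 and were given no fold. These include neuronal or restricted genes such as the kinesins KIF1A, KIF5A and KIF5C and the class III myosin MYO3A of the inner ear and retina. By measured ratio 13 of these 30 (43.3%) lay past 1.5-fold, against 56.4% of the 7879 genes of the array that were dim on both. Where only 1 signal was under the level, it was raised to the level and the fold is given as at least that size.

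The epithelial markers were above background for 9 of 9 genes on both arrays, with a summed signal of 91008 in HCC4006ER and 92108 in HCC4006. Fibroblast markers were above background for 1 of 10 genes in HCC4006ER and 2 of 10 in HCC4006, ciliated airway cell markers for 2 and 3 of 7, neuron markers for 1 and 1 of 5, and lymphocyte markers for 0 and 1 of 2 measured. Vimentin (VIM) read 9057 in HCC4006ER and 5926 in HCC4006 (log2 fold 0.61, the log2 of the HCC4006ER over the HCC4006 signal) and N-cadherin (CDH2) 2419 in HCC4006ER and 1181 in HCC4006 (log2 fold 1.03). The EMT label was not matched by E-cadherin (CDH1), at 11041 in HCC4006ER and 10469 in HCC4006, nor by the repressor ZEB1, which was under background on both arrays at 53.1 and 42.5. EPCAM, an epithelial adhesion molecule, read 11642 in HCC4006ER and 11129 in HCC4006. Which culture was hybridized as HCC4006ER could not be settled from these values, so every fold here is between arrays by label and may not be one of resistant over parental cells.

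Past 1.5-fold, 10 of the 76 members above background differed (13.2%), 5 higher and 5 lower in HCC4006ER (6.58% each). Of all 11896 genes above background 19.1% lay past 1.5-fold, 7.99% higher and 11.2% lower. TUBB2B, among the 5 higher, passed background through HCC4006ER only. With both arrays required to be above background, 4 of 70 members were higher and 5 lower past 1.5-fold. This is 12.9%, against 17.9% of all 10849 such genes. The members' median log2 fold was -0.05 and that of all genes -0.04, and their median absolute log2 fold was 0.27 against 0.27 for all genes. The members' share was thus no higher than that of the array as a whole. By family the median log2 fold was 0.03 for tubulins, -0.13 for kinesins, -0.06 for dyneins and 0.12 for myosins. When the array medians were made equal (median scaling), every log2 fold moved up by 0.14, and the medians of the kinesins and dyneins then lay at 0.00 and 0.07 and that of all genes at 0.10. At this scaling 9 members were higher and 4 lower past 1.5-fold, and 1475 of all genes were higher and 880 lower, against 950 higher and 1328 lower without it.

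**Figure D1:**
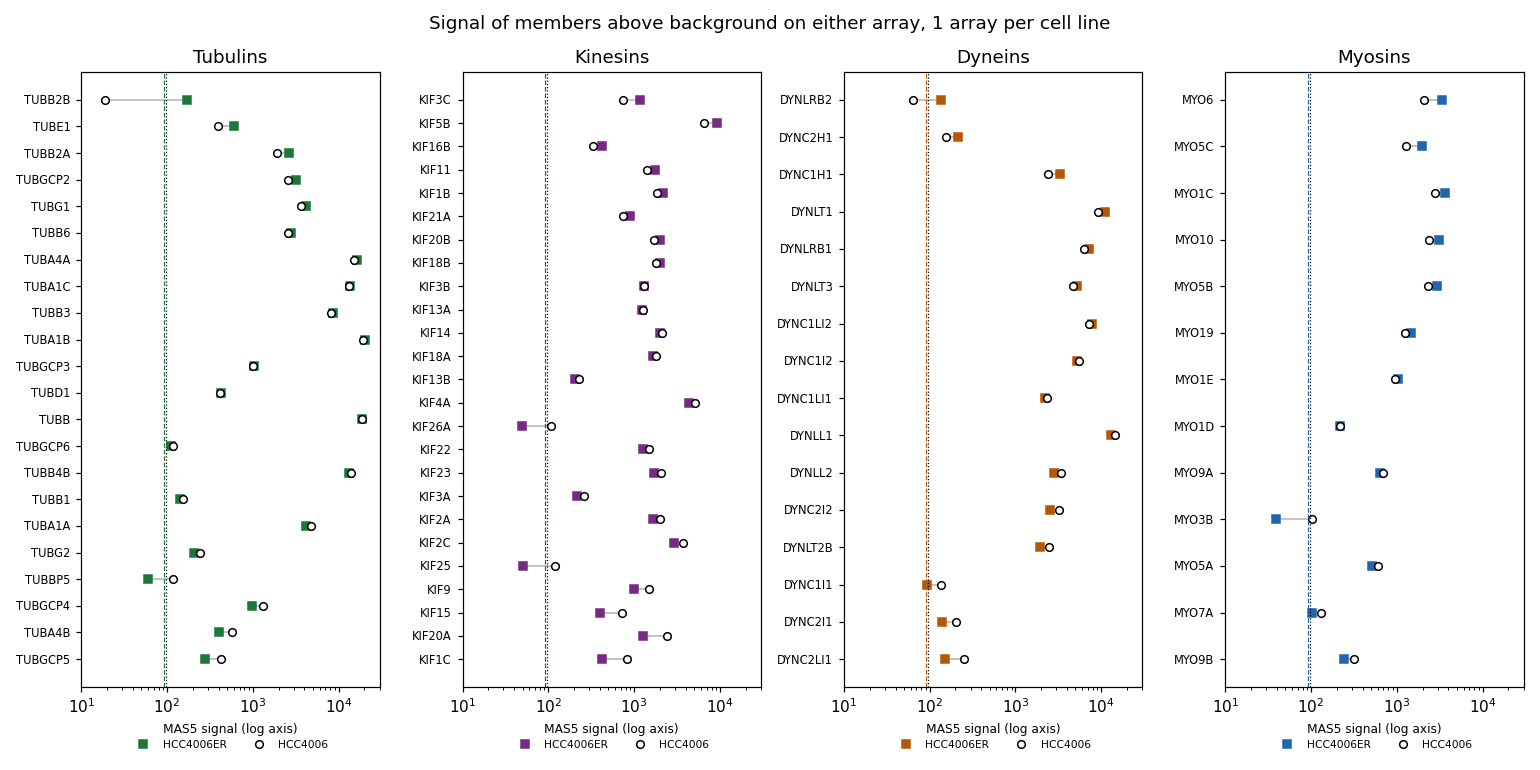
MAS5 signal (log axis) of the 76 members above background on either array, filled squares for HCC4006ER and open circles for HCC4006, with dashed and dotted lines at the background levels of 91.6 and 96.2. The 2 points of a gene lie within 1.5-fold for 66 of the 76 once dim signals are raised to the background level, and the wide gaps of TUBB2B (173 and 19.1), KIF25, KIF26A and MYO3B each have 1 point left of those lines.

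The bulk tubulins were bright and nearly equal on the 2 arrays. TUBA1B, a ubiquitous alpha-tubulin, read 20048 in HCC4006ER and 19462 in HCC4006 (log2 fold 0.04), and TUBB, a widely expressed beta-tubulin, read 18942 in HCC4006ER and 18617 in HCC4006 (log2 fold 0.02). TUBA4A, an alpha-tubulin made without the usual C-terminal tyrosine, read 16325 in HCC4006ER and 15111 in HCC4006 (log2 fold 0.11). The brightest probe set read 23823 in HCC4006ER and 23587 in HCC4006, so these tubulins lie near the top of the range, and whether differences are compressed there was not tested. Of the 5 alpha-tubulins above background none lay past 1.5-fold (median log2 fold 0.04), and of the 7 beta-tubulins 1 did (median 0.05). Of all genes above background 19.1% did, so these counts in groups this small do not set them apart. TUBB3, the neuronal beta-tubulin that many carcinomas express, read 8522 in HCC4006ER and 8212 in HCC4006, and its second probe set read 7343 and 8105, so both lay within 1.5-fold. Both TUBB3 probe sets, and those used for TUBA1B and TUBB, are named with _x_, a class that may also match related genes. How far they read the same RNAs was not tested. TUBB also had a probe set outside this class, at 13155 in HCC4006ER and 12604 in HCC4006 (log2 fold 0.06).

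TUBB2B, a beta-tubulin of the developing brain, was the exception at 173 in HCC4006ER and 19.1 in HCC4006, at least 1.80-fold higher. It passed background through HCC4006ER only, where it had to be the brighter. It has a single probe set, named with _x_, a class that may also match related genes, as 7 of the tubulin probe sets used here are. TUBB2A, its near-identical neighbour, read 2640 in HCC4006ER and 1923 in HCC4006 (log2 fold 0.46), and the share of its RNA in the TUBB2B reading was not tested. With the background set at the 99th percentile, the TUBB2B log2 fold was 0.29. Among the minor tubulins, TUBE1 (epsilon-tubulin, needed for centriole triplets) read 607 in HCC4006ER and 394 in HCC4006, 1.54-fold higher, while TUBD1 (delta-tubulin) read 427 and 418. The second TUBE1 probe set was under background, with a log2 ratio of -0.03.

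The 7 gamma-tubulin ring complex genes were all above background, 0 higher and 1 lower past 1.5-fold, with a median log2 fold of -0.06. Of all genes 7.99% were higher and 11.2% lower. TUBGCP5, a ring subunit, read 276 in HCC4006ER and 425 in HCC4006 (log2 fold -0.62), and -0.29 on its other probe set, which lies within 1.5-fold. TUBG1, the main gamma-tubulin, read 4128 in HCC4006ER and 3646 in HCC4006 (log2 fold 0.18). TUBGCP2 and TUBGCP4, named after their values were seen, had log2 folds of 0.33 and -0.46, so the ring subunits did not differ in a single direction. TUBA4B read 404 in HCC4006ER and 573 in HCC4006 (log2 fold -0.51), just inside the threshold.

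**Figure D2:**
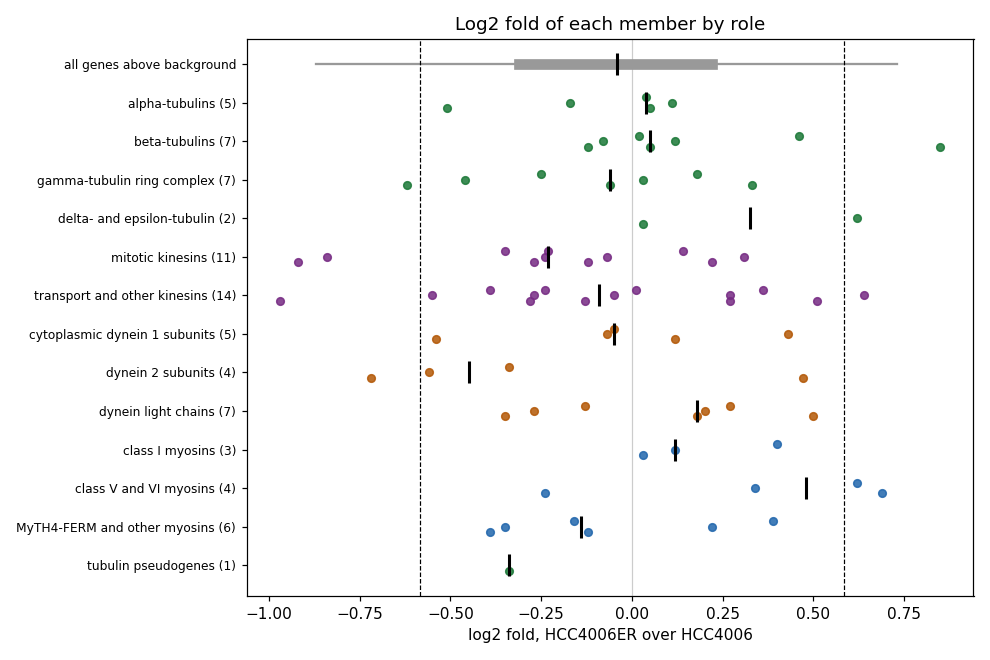
Log2 fold of HCC4006ER over HCC4006 for the 76 members above background, grouped by role, with a bar at each group's median, dashed lines at 1.5-fold and, at the top, the 5th to 95th (thin bar) and 25th to 75th (thick bar) percentiles of all genes above background. The medians run from -0.45 for the dynein 2 subunits to 0.48 for the class V and VI myosins, and the alpha-tubulins have no point past a dashed line.

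Of the 11 mitotic kinesins above background none was higher and 2 were lower past 1.5-fold in HCC4006ER (18.2%), where 11.2% of all genes were lower. Their log2 folds lay above zero for 3 and below it for 8, with a median of -0.23. Those of all genes lay above zero for 5430 and below it for 6466, with a median of -0.04. KIF20A (MKLP2), which brings the chromosomal passenger complex to the central spindle for cytokinesis, read 1280 in HCC4006ER and 2418 in HCC4006, 1.89-fold lower. KIF15, a plus-end motor that helps keep the spindle bipolar, read 401 in HCC4006ER and 716 in HCC4006, 1.78-fold lower. Each has 1 probe set, so no second reading exists for the mitotic kinesins that differed most. KIF11 (Eg5), the motor that separates the spindle poles and with which KIF15 overlaps in function, read 1769 in HCC4006ER and 1430 in HCC4006 (log2 fold 0.31), the opposite direction and within 1.5-fold.

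KIF4A, a chromokinesin, read 4384 in HCC4006ER and 5139 in HCC4006 (log2 fold -0.23, and -0.09 with median scaling). KIF2C (MCAK), which depolymerizes microtubule ends at kinetochores, read 2926 in HCC4006ER and 3738 in HCC4006 (log2 fold -0.35). The others, named after their values were seen, were KIF14 (-0.07), KIF18A (-0.12), KIF22 (-0.24) and KIF23 (-0.27), and with a positive log2 fold KIF18B (0.14) and KIF20B (0.22). Of 22 other mitosis genes, all above background with a median log2 fold of -0.11, 0 were higher past 1.5-fold. Lower past it were 3 (13.6%, against 11.2% of all genes). These were the kinase PLK1 at 1693 in HCC4006ER and 3188 in HCC4006, the centromeric histone CENPA at 839 and 1350, and the cyclin CCNA2 at 2947 and 4467. AURKB at 2123 and 2066 and MKI67 at 1705 and 1633, both named after their values were seen, were near equal. Whether the share of dividing cells bears on the mitotic kinesins was not tested.

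Of the 14 transport and other kinesins above background 1 was higher and 1 lower (7.14% each, median log2 fold -0.09). Of all genes 7.99% were higher and 11.2% lower. KIF3C, a kinesin-2 subunit that pairs with KIF3A, read 1166 in HCC4006ER and 748 in HCC4006, 1.56-fold higher, and its other probe set had a log2 fold of 0.57. KIF3A read 213 in HCC4006ER and 258 in HCC4006 (log2 fold -0.27), and KIF3B, which also pairs with KIF3A, read 1304 and 1298 (log2 fold 0.01). KIF5B, the ubiquitous kinesin-1 heavy chain, read 9238 in HCC4006ER and 6502 in HCC4006 (log2 fold 0.51), just within the threshold, and all 3 of its probe sets were higher (0.40 to 0.55). With median scaling it passed, at 0.64.

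KIF1C, a kinesin-3 that carries integrins and dense-core vesicles, read 417 in HCC4006ER and 819 in HCC4006, 1.96-fold lower. Its probe sets disagree: a second above background read 311 in HCC4006ER and 236 in HCC4006, a log2 fold of 0.40, so the direction rests on the probe set chosen. KIF16B, which moves early endosomes, disagrees likewise, with 427 in HCC4006ER and 333 in HCC4006 on the probe set used and 97.0 and 211 on the other. KIF9, a kinesin of motile cilia, read 1006 in HCC4006ER and 1474 in HCC4006 (log2 fold -0.55), and its other bright probe sets gave -0.17 and -0.16.

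Of the 16 dyneins above background 0 were higher and 1 was lower past 1.5-fold (6.25%), where 11.2% of all genes were lower. The cytoplasmic dynein 1 subunits, which form the motor for minus-end transport of organelles, were all above background and all within 1.5-fold (5 of 5, median log2 fold -0.05). DYNC1LI2, a light intermediate chain, read 7820 in HCC4006ER and 7205 in HCC4006 (log2 fold 0.12), and DYNC1I1, the mainly neuronal intermediate chain, read 93.0 in HCC4006ER and 135 in HCC4006 (log2 fold -0.54), close to background. DYNC1H1, the heavy chain that holds the motor, read 3265 in HCC4006ER and 2426 in HCC4006 (log2 fold 0.43). A second DYNC1H1 probe set read 1305 in HCC4006ER and 659 in HCC4006, which is past 1.5-fold at 0.99, so both its bright probe sets were higher.

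Dynein 2, the motor of retrograde transport in cilia, had a median log2 fold of -0.45 over its 4 DYNC2 subunits. It had 1 of them lower past 1.5-fold, where 11.2% of all genes were lower. DYNC2LI1, its light intermediate chain, read 152 in HCC4006ER and 252 in HCC4006, 1.65-fold lower, with -0.46 on the other probe set above background. DYNC2I1, an intermediate chain, read 139 in HCC4006ER and 204 in HCC4006 (log2 fold -0.56) and DYNC2I2 read 2540 and 3211 (log2 fold -0.34). The heavy chain DYNC2H1 went the other way, at 212 in HCC4006ER and 154 in HCC4006 (log2 fold 0.47), so the 4 subunits did not share a direction. Ciliated cell markers had a summed signal of 621 in HCC4006ER and 857 in HCC4006, with 2 and 3 of 7 above background. The largest part came from 1 gene, DNAH5, named after its values were seen, at 268 and 401. Both cultures are of a tumour cell line and its derivative, and any relation of these markers to the dynein 2 values was not tested.

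The light chains, several of them shared by both dyneins and by other proteins, had 0 of 7 past 1.5-fold. Of all genes 19.1% lay past it, and the median log2 fold of the light chains was 0.18. DYNLL1 (LC8) read 13133 in HCC4006ER and 14342 in HCC4006 (log2 fold -0.13) and DYNLT1 (Tctex-1) read 10977 and 9104 (log2 fold 0.27). With median scaling the DYNLL1 log2 fold was 0.01. DYNLRB2, a roadblock chain, read 136 in HCC4006ER and 64.6 in HCC4006, at least 1.41-fold higher, and passed 1.5-fold with median scaling (log2 fold 0.63).

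Of the 13 unconventional myosins above background 2 were higher (15.4%) and 0 lower past 1.5-fold, where 7.99% of all genes were higher and 11.2% lower. Both myosins past it were in the group of class V and VI. MYO6, the only myosin known to walk toward the minus end of actin and a motor of endocytosis, read 3353 in HCC4006ER and 2074 in HCC4006, 1.62-fold higher, and its 3 probe sets gave log2 folds of 0.44 to 1.37. MYO5C, a class V myosin of secretory granules in glandular epithelia, read 1961 in HCC4006ER and 1276 in HCC4006, 1.54-fold higher on its single probe set. MYO5B, which carries RAB11 recycling endosomes, read 2928 in HCC4006ER and 2312 in HCC4006 (log2 fold 0.34), with 0.55 on a second probe set above background. MYO5A, the class V myosin of melanosomes and neurons, read 508 in HCC4006ER and 600 in HCC4006 (log2 fold -0.24), so class V held both directions.

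Of the class I myosins, MYO1C, which tethers membranes to actin, read 3692 in HCC4006ER and 2791 in HCC4006 (log2 fold 0.40), and MYO1D read 220 and 216 (log2 fold 0.03). All 3 class I genes above background lay within 1.5-fold (median log2 fold 0.12). MYO10, the motor of filopodia, read 3096 in HCC4006ER and 2361 in HCC4006 (log2 fold 0.39), and its 3 other probe sets above background on both arrays gave 0.26, 0.67 and 0.73. The remaining probe set, above background in HCC4006 only, read 71.8 in HCC4006ER and 109 in HCC4006. The MYO10 group of MyTH4-FERM and other myosins had 0 of 6 past 1.5-fold, where 19.1% of all genes lay past it. The median log2 fold of this group was -0.14. MYO19, a mitochondrial myosin named after its values were seen, read 1467 in HCC4006ER and 1262 in HCC4006, and MYO9B, a myosin with a RhoGAP domain, read 240 and 314 on the probe set used but 213 and 144 on another.

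**Figure D3:**
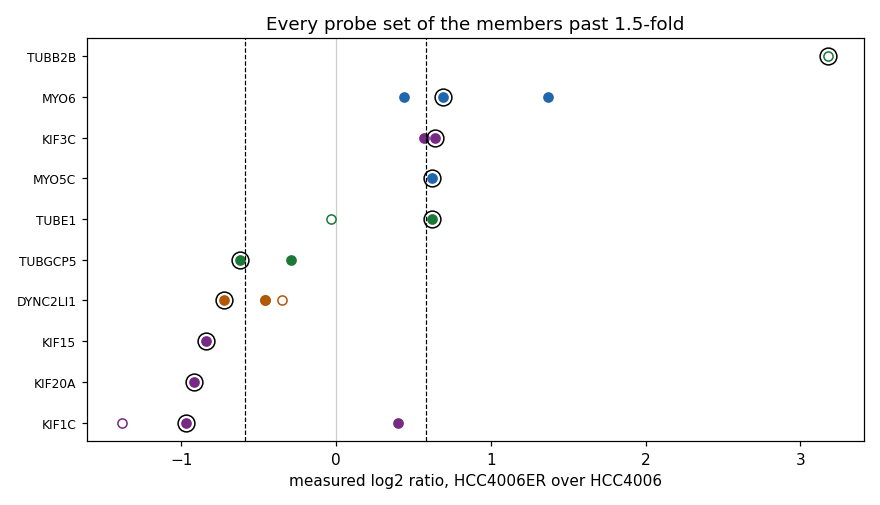
Measured log2 ratio of HCC4006ER over HCC4006, with no signal raised to background, for each probe set of the members past 1.5-fold. Points are filled where the probe set is above background on both arrays and open where it is not. A ring marks the probe set used, and dashed lines stand at 1.5-fold. TUBB2B stands at its measured 3.18, for which the text gives at least 1.80-fold. KIF1C has filled points on both sides of zero, while MYO6, KIF3C, DYNC2LI1 and TUBGCP5 keep 1 side.

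Probe sets of 1 gene read the same RNA on the same arrays, so their spread shows disagreement between probes and leaves out variation between cultures and arrays. Among 38 members with 2 or more probe sets above background on both arrays, 26 had all of them in 1 direction, and the pooled SD of the log2 fold within a gene was 0.29. Over 5264 genes of the array it was 0.27. Of the 10 members past 1.5-fold, 5 had 2 or more such probe sets, and 4 of these kept the direction, KIF1C being the exception. At a 1.5-fold limit the nearest members inside were DYNC2I1 (1.47-fold), KIF9 (1.46-fold), DYNC1I1 (1.45-fold) and KIF5B (1.42-fold), and the nearest outside were MYO5C, TUBGCP5 and TUBE1 (1.54-fold each). The gaps between them are smaller than this spread. At 2-fold 0 members passed, against 5.94% of all genes above background.

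Partner genes of the motors were counted in the same way, in lists chosen with earlier results of these data known. The shares of all genes to set beside each partner group are 7.99% higher and 11.2% lower. Non-muscle myosin II with its light chains and regulators is the conventional counterpart of the myosins above. This group had 5 of 15 higher (33.3%) and 0 lower, with a median log2 fold of 0.31. The heavy chain MYH9, named after its values were seen, read 5462 in HCC4006ER and 2898 in HCC4006, and MYH10 read 2396 and 1248. MYLK, the myosin light chain kinase, read 2749 in HCC4006ER and 1221 in HCC4006, MYL12A, a regulatory light chain, read 4455 and 2314, and MYL9, another, read 447 in HCC4006ER and 92.5 in HCC4006, at least 4.65-fold higher. MYL9 passed background through HCC4006ER only, where it had to be the brighter, and 14 of the 15 genes were above it on both arrays. The difference between this group and the unconventional myosins, with 2 of 13 higher, was not tested.

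Microtubule-associated and plus-end proteins had 7 of 34 higher and 1 lower, with a median log2 fold of 0.06. MAP2, known from dendrites, read 407 in HCC4006ER and 147 in HCC4006, MAP1B, known from growing axons, read 1604 and 750, and TACC1, a centrosome protein, read 3419 and 2010. EML1 went the other way at 380 in HCC4006ER and 1126 in HCC4006, 2.96-fold lower. Neuron markers had a summed signal of 190 in HCC4006ER and 213 in HCC4006, with none above 92.4 and 123. The end-binding protein MAPRE1, named after its values were seen, read 8924 in HCC4006ER and 8556 in HCC4006.

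Dynactin and the dynein adaptors, which switch dynein on and tie it to cargo, had 1 of 24 higher and 1 lower (median log2 fold -0.04). BICD1, an adaptor for Golgi vesicles, read 1744 in HCC4006ER and 812 in HCC4006, and DCTN5, of the dynactin pointed end, read 1625 and 2767. Kinesin light chains, KIFC kinesins and adaptors had 0 of 12 higher and 3 lower (median 0.00): the adaptor MAPK8IP3 read 109 in HCC4006ER and 188 in HCC4006, the kinetochore kinesin CENPE 649 and 1022, and KIFC2 150 and 233. Tubulin folding and modification genes had 1 of 25 higher, the severing protein FIGN at 451 in HCC4006ER and 294 in HCC4006, and 0 lower (median -0.02).

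**Figure D4:**
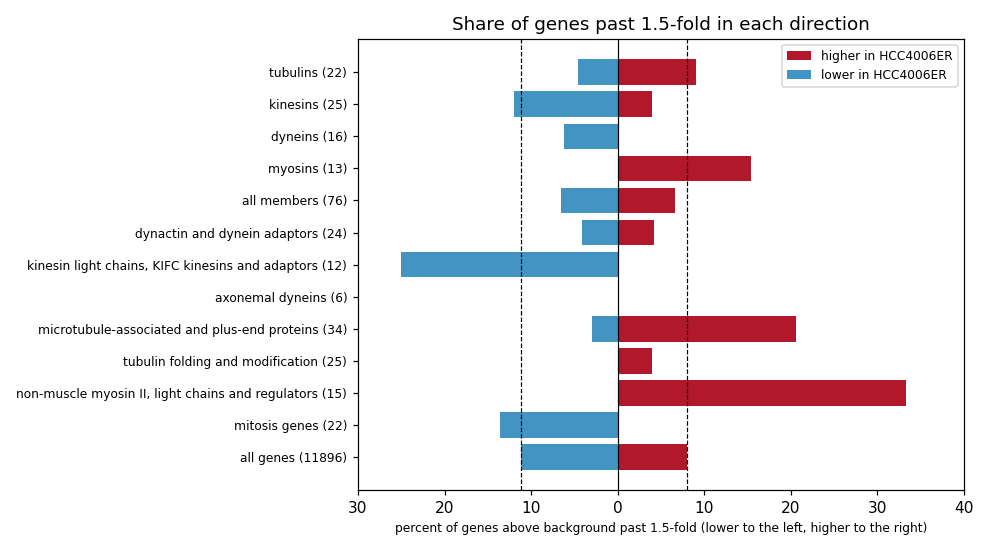
Percent of genes above background that were higher and lower past 1.5-fold in HCC4006ER than in HCC4006. Shown are all genes, all members, each family, each partner group and the mitosis genes. Members and partner lists were chosen with earlier results of these data known. Bars run from 0 to the right (higher) and left (lower), with dashed lines at the shares of all genes. All genes stand at 7.99% higher and 11.2% lower, and the non-muscle myosin II group stands at 33.3% higher and 0% lower.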

How the data were processed

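The deposited values were MAS5 signal intensities of 54675 probe sets on each array, linear and without detection calls. The submitters' processing notes name GCOS 1.4 as well. Without the extreme 2% at each end the mean was 500 on both arrays, and the medians were 57.7 in HCC4006ER and 63.4 in HCC4006. No columns of other samples or of the authors' comparisons were used. Probe sets were named through GEO's platform annotation: 41097 had 1 symbol, 1801 several and 11777 were not listed or had none, and only the first were used. All 106 members matched RefSeq by symbol.

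The log2 fold is the log2 of the HCC4006ER over the HCC4006 signal, after a signal under background was raised to the background level (95th percentile of 127 receptor probe sets). The threshold was 1.5-fold, that of the study's methods, and 2-fold was an alternative. No test was possible with 1 array per cell line, which limits the precision of every value. Members and partner lists were chosen with earlier results of these data known. Named genes were members past 1.5-fold, the 3 brightest per family, MYO1D and MYO5B, members within 0.1 log2 of the threshold, and up to 4 members past 1.5-fold per partner list; others were named after their values were seen. The calculation was checked on simulated arrays. The first listed RefSeq start (GRCh38.p14) gave each promoter, for 92 of the 106 members. Python 3.11.15, numpy 2.4.6, pandas 2.3.3 and matplotlib 3.10.9 were used.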

Additional observations from a re-analysis of the deposited data

How the results depend on the processing

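No paired analysis was possible because each cell line had 1 array. Of 28 named members under up to 9 alternatives, 220 of 235 log2 folds moved by less than the SD between probe sets and 15 moved by more. A bright member with 1 probe set cannot move when only the probe set or background level changes, so these counts do not measure stability. Among the alternatives that gave them a value, the 10 members past 1.5-fold kept their sign, but none took the KIF1C probe set with a log2 fold of 0.40 on its own. KIF15, KIF20A and MYO5C stayed past 1.5-fold under 9 of 9 alternatives. Each has 1 probe set, so only median scaling and quantile normalization changed its value. KIF1C and MYO6 stayed past 1.5-fold under 8 of 8 and had no value under 1 more: the largest-fold probe set of KIF1C was dim, and every MYO6 probe set is named _s_. Averaged over all probe sets, dim ones included, TUBE1 (0.30), DYNC2LI1 (-0.50) and TUBGCP5 (-0.46) fell within 1.5-fold. So did KIF3C (0.57) and TUBGCP5 (-0.29) without probe sets named _x_, _s_ or _a_, TUBGCP5 (-0.49) with median scaling, and TUBB2B (0.29) with the 99th percentile as background. Averaged over all probe sets, DYNC1I1 stood at 0.16, KIF9 at 0.15 and MYO5B at -0.05, each opposite in sign to its value above.

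At 2-fold 0 members were higher and 0 lower, against 5.94% of all genes past that size. By measured ratio with no background level 12 of 106 members were higher and 16 lower (26.4% past 1.5-fold in either direction, against 36.0% of all genes). Members higher were 9 of 76 with median scaling, where 1475 of all 11896 genes were higher. Without probe sets named _x_, _s_ or _a_ they were 2 of 55, against 774 of all 8884 genes. Members lower were 9 of 76 averaged over all probe sets (1749 of all 11896 genes) and 9 of 84 with signals raised to the array median (1672 of all 13254). The myosin median of 0.12 was 0.59 when the probe set with the largest fold was taken per gene. Of 138 genes in the partner and mitosis lists 14 were higher and 8 lower, and 3 of the 8 were mitosis genes. Of all 11896 genes 950 were higher and 1328 lower. At 2-fold 5 listed genes were higher and 1 lower (283 and 424 of all genes), and with median scaling 21 and 4 (1475 and 880). Averaged over all probe sets 14 were higher and 15 lower (1196 and 1749), and by measured ratio 17 and 19 of 165 (2574 and 4550 of all 19775). Quantile normalization gave the same 10 members.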

Other observations

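Axonemal dyneins, the motors of ciliary beating, were above background for 6 of 21 genes and none of the 6 lay past 1.5-fold (median log2 fold -0.20). Of all genes above background 19.1% did. DNAH5, an outer arm heavy chain, read 268 in HCC4006ER and 401 in HCC4006 (log2 fold -0.58), while DNAH14 read 868 and 914. The alpha-tubulin acetyltransferase ATAT1 read 142 in HCC4006ER and 144 in HCC4006, and the deacetylase HDAC6 read 608 and 618. All genes of this paragraph were named after their values were seen.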
